A study of Caenorhabditis elegans with 3 samples.

Results

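Strong LIN-15B peaks at the head of a tandem gene cluster numbered 272 of the 30000 peaks in the list made from all replicates together. They stood at 269 different genes. They were chosen by a rule on peak rank and on gene order. A peak on an autosome counted as strong when a peak among the 2000 strongest of a replicate overlapped it in at least 2 of 3 replicates. Its summit had to lie from 500 bp upstream to 200 bp downstream of annotated starts of protein-coding transcripts on 1 strand only. The nearest such gene, called the head here, had to be followed on the same strand by another protein-coding gene that started 1 to 500 bp after the head's annotated end. Of 24320 autosomal peaks in that list, 1448 (5.95%) were strong, and 732 of these lay at promoters on 1 strand. The 272 tandem-head peaks were 37.2% of those 732, while 19.3% of the 17242 autosomal protein-coding genes had a same-strand gene that close behind them. Both shares use the gene order that defined the peaks and are given as a description.

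The peaks come from chromatin immunoprecipitation with sequencing (ChIP-seq), which finds the DNA that a protein lay on, in Caenorhabditis elegans. All 3 biological replicates were L1 larvae, the first larval stage, taken as whole animals of mixed sex from strain OP184, whose genotype is unc-119(tm4063) III with the insertion wgIs184. This insertion carries lin-15B fused to eGFP. The labels name LIN-15B as the antibody's target but the eGFP fusion in the sample descriptions, so whether the tag or the protein itself was bound is not settled. Replicates 1 and 2 came from the Caenorhabditis Genetics Center. The labels of replicate 3 alone give a C-terminal GFP-FLAG tag and sonication with a microtip. There was 1 group and no control sample in the series, every cell type of the larva was pooled, and the depth of each library is unknown.

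Many C. elegans genes lie in operons, runs of genes on 1 strand that are transcribed from a promoter before the first gene into a single precursor RNA. The precursor is cut between the genes, and the downstream genes receive a spliced leader, a short RNA joined to the 5′ end of the message at a splice acceptor, usually SL2. Operons are known to be rich in genes that most cells use, such as those for translation, splicing and mitochondria. LIN-15B is a nuclear protein with a THAP-like zinc finger that belongs to the synMuv B genes, which restrain vulval fate genes and keep germline genes off in somatic cells together with the DREAM complex. The gene clusters here rest on annotated distances alone. No map of operons or of spliced leaders was used, so they are called tandem clusters.

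The 61 bp around the series-wide summit are printed for the 6 best-ranked tandem-head peaks, to let the base composition at the strongest sites be seen. Coordinates are on WBcel235 (ce11), the sequence is NCBI RefSeq's, and each is written 5′ to 3′ on the strand of the head gene. Capitals mark a match to 1 of the 6 motifs searched on both strands, which are spelled out with their counts further on.
tasp-1, chrIII:10759222-10759282, plus strand: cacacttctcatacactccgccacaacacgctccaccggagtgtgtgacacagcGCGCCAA
eelo-2, chrIV:17249877-17249937, plus strand: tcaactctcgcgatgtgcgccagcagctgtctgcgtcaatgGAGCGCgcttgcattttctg
K10D2.5, chrIII:5172669-5172729, plus strand: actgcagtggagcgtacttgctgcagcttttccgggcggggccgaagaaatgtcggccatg
sec-61.G, chrV:10897348-10897408, minus strand: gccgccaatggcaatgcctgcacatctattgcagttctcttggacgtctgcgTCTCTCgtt
Y73F8A.27, chrIV:15472562-15472622, plus strand: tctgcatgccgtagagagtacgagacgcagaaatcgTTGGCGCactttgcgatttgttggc
lin-38, chrII:13575693-13575753, plus strand: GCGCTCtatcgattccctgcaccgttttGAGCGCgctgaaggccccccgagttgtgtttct
The windows of tasp-1 and Y73F8A.27 held an E2F-like match, those of eelo-2 and lin-38 held GAGCGC, and lin-38 held it on both strands. The window of sec-61.G held GAGAGA on the opposite strand. The window of K10D2.5 held none of the 6, and its last 10 bases lay in the first exon.

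The stretch between head and second gene is printed for 4 of these clusters, because it is the part in which an operon's precursor would be cut. Capitals mark an AG directly before the annotated start of the second gene, the last bases of a splice acceptor.
tasp-1 to dpy-28, chrIII:10763022-10763130, plus strand: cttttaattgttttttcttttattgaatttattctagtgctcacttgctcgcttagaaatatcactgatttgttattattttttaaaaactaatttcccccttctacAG
K10D2.5 to emb-1, chrIII:5173339-5173438, plus strand: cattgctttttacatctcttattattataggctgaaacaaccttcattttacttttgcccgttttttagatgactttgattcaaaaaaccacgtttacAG
sec-61.G to F32D8.13, chrV:10896544-10896657, minus strand: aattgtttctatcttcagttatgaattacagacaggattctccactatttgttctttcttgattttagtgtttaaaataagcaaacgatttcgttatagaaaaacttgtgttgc
Y73F8A.27 to Y73F8A.26, chrIV:15473573-15473659, plus strand: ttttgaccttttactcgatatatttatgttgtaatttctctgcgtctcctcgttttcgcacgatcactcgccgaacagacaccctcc
The stretch before dpy-28 was 49.5% T and ended in AG, and the stretch before emb-1 was 42% T and ended in AG. Those before F32D8.13 and Y73F8A.26 were 42.1% and 37.9% T and did not end in AG at the annotated start.

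The strongest tandem-head peak stood before tasp-1, which encodes a Taspase homolog, a protease that cuts other proteins at aspartate. Its rank by the authors' peak strength, where 1 is the strongest of a list, was 1 in both replicates 1 and 2, and 15 in replicate 3. The gene behind tasp-1 is dpy-28, a condensin subunit that also serves in dosage compensation of the X chromosome, and it starts 110 bp after the end of tasp-1. The summits lay 58, 56 and 54 bp upstream of the tasp-1 start in replicates 1, 2 and 3, and dpy-28 had no strong peak of its own.

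Before eelo-2, annotated with a peptidase domain, the peak held ranks 7, 8 and 20 in replicates 1, 2 and 3. Its second gene, gtf-2E1, encodes the alpha subunit of the general transcription factor TFIIE and starts 337 bp behind it. The peak before K10D2.5, an uncharacterized gene, ranked 29, 18 and 39 in replicates 1, 2 and 3. K10D2.5 heads 3 genes, followed by emb-1, a subunit of the anaphase-promoting complex, and cid-1. The peak before sec-61.G ranked 20, 29 and 46. This gene encodes the gamma subunit of the Sec61 channel, through which proteins enter the endoplasmic reticulum, and the phosphomevalonate kinase gene F32D8.13 starts 115 bp behind it. At these 4 sites the rank in replicate 3 was the weakest of the 3.

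The next 6 heads by mean rank were close to each other in every replicate. The peak of Y73F8A.27, annotated with a ferredoxin-type domain, ranked 57, 63 and 69 in replicates 1, 2 and 3. The peak of lin-38, itself a synMuv gene of class A, ranked 69, 73 and 54. The peak of gex-3, a member of the WAVE complex that drives actin branching, ranked 72, 61 and 74, and its second gene dsb-1 acts in making meiotic double-strand breaks. Neighbours in this order such as these differed by less than their own spread, with a mean rank of 65.3 ± 10.02 (SD, n = 3) for lin-38 and 69 ± 7.0 (n = 3) for gex-3. The peak of Y39G8B.2, an oxidoreductase gene, ranked 71, 53 and 85, with the similarly annotated Y39G8B.1 starting 40 bp behind it. The peak of cyn-3, a cyclophilin that helps proteins fold, ranked 78, 71 and 73. The peak of rsp-6, an SR splicing factor that heads 6 genes, ranked 76, 87 and 68. The maps of the first 8 clusters show the summits just before the head, and none of these 8 second genes had a strong peak of its own.

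**Figure D1:**
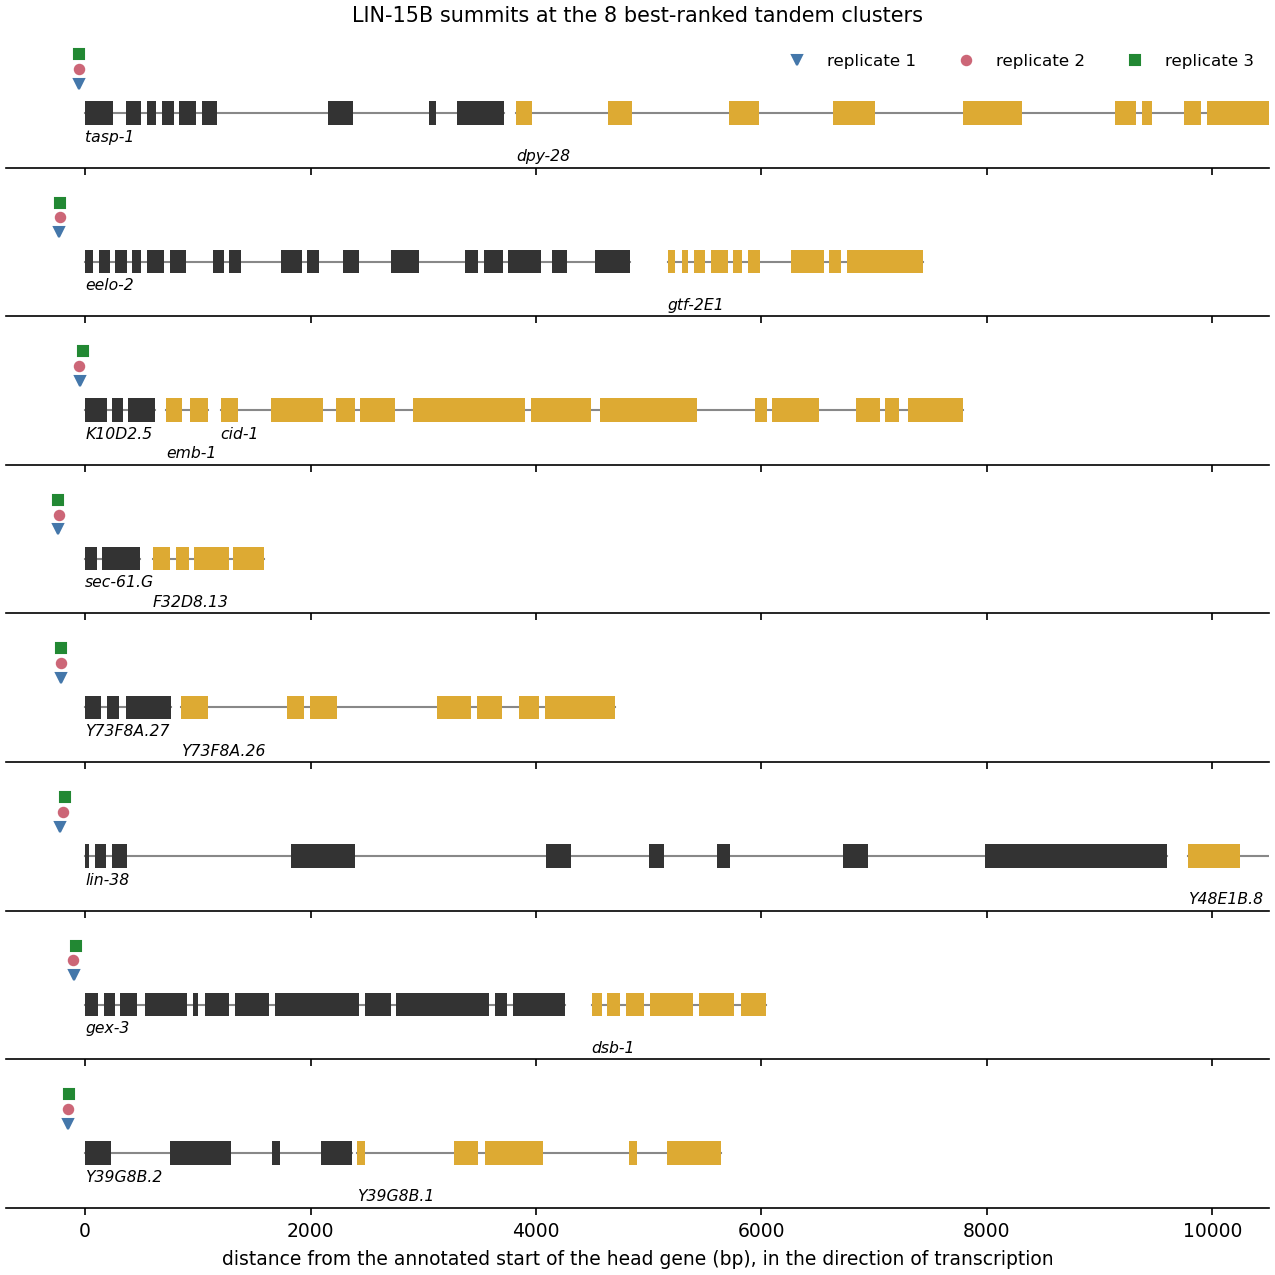
Gene models of the 8 tandem clusters with the best mean rank, drawn by distance in bp from the annotated start of the head gene in the direction of transcription, with exons of the head in black and of later genes in ochre, and long genes cut off at the right edge. Markers show the summit of the matched peak in each replicate, and all lie upstream of the head, from 21 bp (K10D2.5, replicate 3) to 240 bp (sec-61.G, replicate 3).

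Over all 272 tandem-head peaks, the median rank was 992, 798 and 725.5 in replicates 1, 2 and 3. A member without a listed peak was placed behind all listed ranks. Counted in the same way, the medians over all 1448 strong peaks were 836.5, 786.5 and 797. Replicate 1 stood apart: it lacked a listed peak at 46 members, while replicate 2 lacked 3 and replicate 3 lacked 2. Of the 128 members that were strong in just 2 replicates, the replicate that fell short was replicate 1 for 105, replicate 2 for 11 and replicate 3 for 12. The same counts over all strong peaks are not given here. The other 144 members, 52.9% (95% exact interval 46.8 to 59.0, counting error only), were strong in all 3 replicates. This share uses the ranks that chose the members. Over all 1448 strong peaks, chosen on ranks in the same way, it was 55.9%. It was 3.33% over all autosomal peaks, which were not chosen so and are no like comparison. Among members strong in both remaining replicates, the share strong in all 3 was 57.8%, 92.9% and 92.3% when replicate 1, 2 or 3 was left out of the rule. In the whole list of replicate 1, 538 peaks reached a q score of 2, fewer than the 3083 of replicate 2 and the 2206 of replicate 3. What its lower overlap owes to the library was not tested. Spearman's rank correlation across the members listed in both replicates, which share libraries and were chosen on these ranks, was 0.788 (n = 223) for replicates 1 and 2, 0.671 (n = 224) for 1 and 3, and 0.763 (n = 267) for 2 and 3.

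By rank in the series-wide list, the tandem-head peaks were not the strongest kind. Their median rank was 687, against 729 for the 460 strong peaks at promoters on 1 strand whose gene has no close follower, called lone-gene peaks. In the replicates' own lists the order of these 2 kinds varied. The medians were 992 for tandem heads against 810 for lone genes in replicate 1 and 798 against 781 in replicate 2. In replicate 3 they were 725.5 against 776.5. The 401 strong peaks at divergent promoters, with starts on both strands, had a median rank of 572. The 315 strong peaks away from promoters had a median rank of 1081. The share strong in all 3 replicates was 52.9% for tandem heads, 58.5% for lone genes, 66.8% for divergent promoters, 40.95% for peaks away from promoters and 55.9% for all strong peaks.

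At the edge of the rule, the weaker of the 2 ranks that admitted a member was 1980 for copg-1, 1984 for the more distant peak of his-72 and 1997 for ubl-5. Just outside, with the same gene order, the second-best rank was 2014 for mys-4, 2015 for aman-2 and 2029 for syf-3. These 6 values differ by less than a rank moves between replicates: the peak of ubl-5 ranked 6219, 1997 and 1115 in replicates 1, 2 and 3.

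The summit lay upstream of the nearest annotated transcript start of the head at 264 members and downstream at 8. This start is not always the outermost one of the gene: the summit assigned to mnk-1 lay in an intron of mnk-1 itself. The median position was 185.5 bp upstream, with quartiles at 277 and 123.75 bp upstream. Measured with each replicate's own summits, the medians were 191, 181 and 187.5 bp upstream for replicates 1, 2 and 3. These medians lay closer together than the 25 bp steps in the plot of positions. The replicate summit fell within 50 bp of the series-wide summit at 89.4%, 93.7% and 93.0% of the members with a peak in replicates 1, 2 and 3. The series-wide summit was intergenic at 236 members, in an intron at 23 and in an exon at 13. The range of positions is set by the rule, since it admits summits up to 500 bp upstream.

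**Figure D2:**
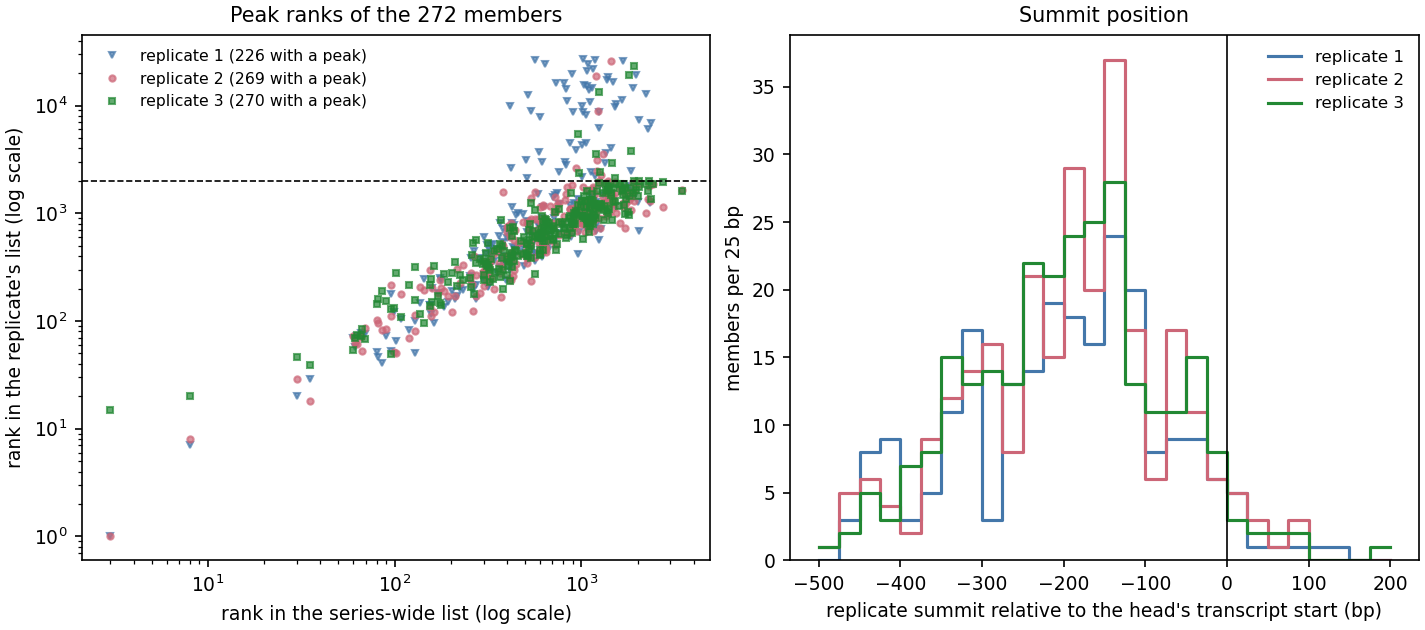
Left, rank of the 272 tandem-head peaks in each replicate's list against rank in the series-wide list (both log scale), with a dashed line at rank 2000; most points beyond the line belong to replicate 1, which had a listed but weaker peak at 59 members, while replicates 2 and 3 had 8 and 10. Right, number of members per 25 bp by the position of the replicate summit relative to the nearest transcript start of the head (bp); the 3 outlines peak between 100 and 250 bp upstream.

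The gap between head and second gene was narrow and of a preferred size. Among the 272 members its median was 112 bp (quartiles 96.75 and 209.25 bp), and 116 members, 42.6%, had a gap of 80 to 120 bp, against 26.6% of all 3332 autosomal genes with a follower at 1 to 500 bp. The 3063 cluster heads without a tandem-head peak had a median gap of 194 bp, and 25.2% of them, 771, lay at 80 to 120 bp. The limits of this range were drawn after the distribution was seen. These other heads still include heads with a strong peak at a divergent promoter. Of all first genes of runs, 307 had a strong peak of any kind, while 183 members headed their run. The median gap was 113.3 ± 0.58 bp (SD, n = 3) when the clusters were rebuilt from the 2000 strongest peaks of each replicate alone. The replicates' clusters share genes and are not independent, so this SD does not measure how gaps vary between clusters. The other heads were not rebuilt in each replicate, and the difference from them was not tested. The gap was at most 200 bp in 73.5% of the members' clusters and in 53.1% of all clusters.

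**Figure D3:**
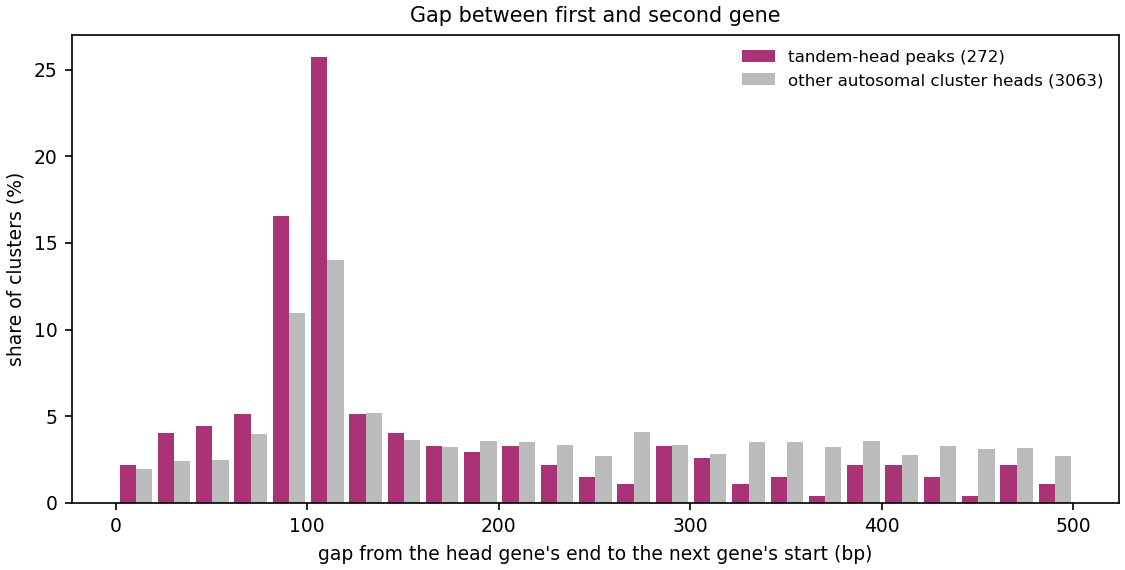
Share of clusters (%) by the gap in bp between the head gene's end and the next gene's start, in steps of 20 bp, for the 272 tandem-head peaks (purple) and the 3063 other autosomal cluster heads (grey). Both distributions rise between 80 and 120 bp, which holds 42.6% of the former and 25.2% of the latter, and the grey bars stand higher over most of the range above 200 bp.

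Every head has its peak by the rule, while the genes behind it were not used to choose the members. Of the 269 second genes, 20 had a strong peak nearest to their own start, 7.43% (95% exact interval 4.60 to 11.2), a share near the 6.5% of all autosomal genes that were the nearest gene of a strong peak. With a strong peak asked for in both replicates that remain, the share was 3.25% without replicate 2 (155 members) and 3.87% without replicate 3 (156 members). Without replicate 1 (249 members) it was 7.23%. That rule is stricter and leaves fewer strong peaks at genes of any kind. The share of all autosomal genes under it is not given here, so these values have no background of their own. Under the main rule, a strong peak of their own was found at 3 of 42 second genes at a gap of 1 to 79 bp and 3 of 114 at 80 to 120 bp. It was found at 1 of 42 above 120 and up to 200 bp, and 13 of 71 above 200 bp. Of the 381 genes behind the heads in all positions, 29 had such a peak.

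The same contrast was read over every autosomal gene, by its place in a run of same-strand genes with gaps of 1 to 500 bp. These values include the members' own genes among the first genes and are a description of all runs. Of 2441 first genes, 307 (12.6%) were nearest to a strong peak, against 6.08% of 2435 second genes, 4.83% of 891 later genes and 5.42% of 11475 genes in no run. From each replicate's own 2000 strongest peaks, the share was 9.55%, 13.6% and 15.6% for first genes and 4.89%, 6.78% and 7.64% for second genes in replicates 1, 2 and 3. The means were 12.9% ± 3.09 and 6.43% ± 1.41 (SD, n = 3), and the first genes were higher in all 3 replicates. Replicate 1 was the lowest for every place in the run.

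The contrast followed the width of the gap. Before a gap of 80 to 120 bp, 121 of 570 first genes (21.2%) had a strong peak, and behind that gap 8 of 567 second genes (1.41%) did. In replicates 1, 2 and 3 the first genes were at 15.8%, 22.98% and 28.9% and the second genes at 2.12%, 2.29% and 2.47%. All autosomal genes were at 5.13%, 7.27% and 8.15% in the same lists. The first genes include those of the 72 members that headed their run with such a gap, which the rule chose on these peaks. The values are therefore a description. With each replicate left out in turn, the share of second genes was 0.882%, 0.705% and 0.882% and that of first genes stayed between 14.2% and 20.2%. Around a gap of 1 to 79 bp the shares were 19.3% of first and 4% of second genes, and around a gap above 120 and up to 200 bp they were 13.7% and 4.34%. Around a gap above 200 bp the order turned, with 6.58% of first genes and 9.33% of second genes. There the replicate values were 5.66%, 7.24% and 8.16% for first and 7.08%, 9.91% and 11.5% for second genes, higher for second genes within each replicate but with overlapping ranges. Behind a narrow gap, 186 bp upstream of the second gene falls inside the first gene, and a part of the difference owed to that position was not tested. First genes of runs of 2, 3 and 4 or more genes had a strong peak in 11.5%, 13.5% and 20.8% of cases, with replicate means of 11.9% ± 2.59, 14.3% ± 3.27 and 20.4% ± 8.11 (SD, n = 3). The SDs include the different overall levels of the replicates, and the share was higher in the longer runs within each replicate: 8.97%, 11.2% and 11.5% in replicate 1, then 12.7%, 13.95% and 22.4% in replicate 2, and 13.9%, 17.7% and 27.3% in replicate 3.

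**Figure D4:**
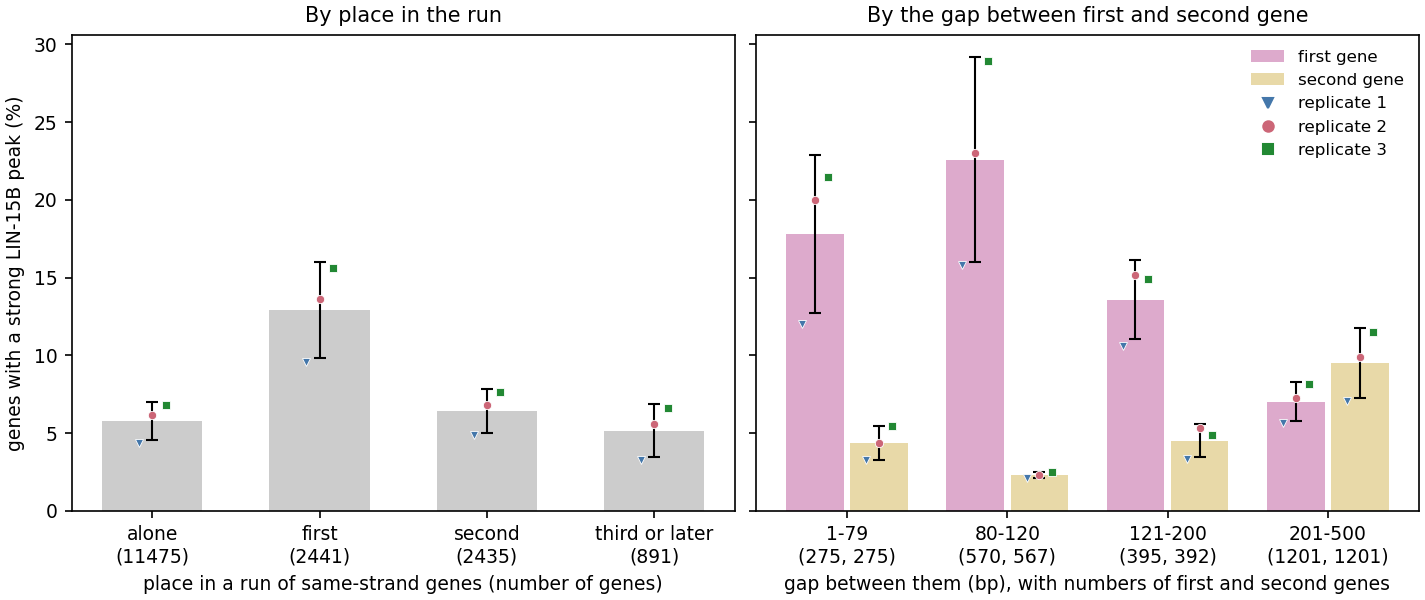
Share of autosomal protein-coding genes (%) that are nearest to a strong LIN-15B peak, by place in a run of same-strand genes (left) and, for first and second genes, by the gap between them in bp (right). Bars are means over 3 replicates with SD, each from the replicate's own 2000 strongest peaks, and markers are the replicates; at 80 to 120 bp the first genes stand at 22.6% ± 6.59 and the second genes at 2.29% ± 0.176.

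The name of head does not hold strictly for 89 members (32.7%), whose gene itself follows another same-strand gene at 1 to 500 bp, as do 26.7% of all heads. The gap before these 89 was wide: its median was 310 bp, and it was above 200 bp at 72 of them (80.9%) and 80 to 120 bp at 4 (4.49%). Over all 891 heads with a gene before them the median gap before was 150 bp, with 42.0% above 200 bp and 31.9% at 80 to 120 bp. The remaining 183 members headed their run. Their median gap to the second gene was 114 bp, and 72 of them (39.3%) had a gap of 80 to 120 bp.

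Clusters held 2 genes at 189 members, 3 at 50, 4 at 24, 5 at 5, 6 at 3 and 8 at 1, with 638 different genes in all. Clusters of 4 or more were 12.1% of the members' and 8.37% of all. The longest ran from ran-4, which encodes a nuclear transport factor 2 that carries Ran into the nucleus, through 8 genes to F43G9.13, and includes the splicing factor gene snrp-27 and the mRNA decay gene edc-3. Its peak ranked 625, 1165 and 614 in replicates 1, 2 and 3. Its summit was the farthest from a head's nearest transcript start, 496 bp upstream. The 6-gene cluster of ndus-8, a subunit of respiratory complex I, holds adr-2, an adenosine deaminase of double-stranded RNA, and the mitochondrial chaperone gene hsp-75. Its peak ranked 4492, 1094 and 897. The 6-gene cluster of ztf-7, a zinc finger gene, holds smg-4, which acts in nonsense-mediated decay, and its peak ranked 488, 262 and 739. The 6-gene cluster of rsp-6 ends in sec-10, of the exocyst, and rpap-3. The gene rsp-6 itself follows another same-strand gene, and tag-322 within its cluster is a member too, at ranks 670, 770 and 321. A 5-gene cluster was of another kind, 5 C-type lectin genes behind each other, and the peak of its head clec-57 ranked 1424, 1297 and 23149, far down the list of replicate 3. Among these clusters, clec-57 alone owed its place to replicates 1 and 2.

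The members' clusters were described by 19 gene lists drawn up by name, and 123 of the 272 held at least 1 listed gene. A list holds the genes whose names match its pattern, so genes of the same kind with other names are missed. In translation, 12 clusters (4.41%) held a translation factor gene, against 1.11% of all 3332 clusters, 9 of them as the head. The peak of eif-3.B, a subunit of initiation factor 3, ranked 105, 177 and 109 in replicates 1, 2 and 3, while its fellow subunit eif-3.C had a peak at ranks 243, 193 and 95. Cytosolic ribosomal protein genes were in 8 clusters (2.94%, against 1.23% of all), 7 as the head. The peak of rps-28 ranked 46, 95 and 161, that of rpl-18 179, 215 and 49, and that of rps-24 275, 289 and 364. Mitochondrial ribosomal protein genes were in 9 clusters (3.31%, against 1.98%), 3 as the head and 4 as the second gene, such as mrps-21 behind F29B9.11 and mrpl-48 behind vps-37. Aminoacyl-tRNA synthetase genes were in 7 (2.57%, against 0.84%), with kars-1, for lysine, a head at ranks 676, 819 and 400.

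In transcription and RNA handling, genes of RNA polymerases, general factors and Mediator were in 18 clusters (6.62%, against 2.55%), 10 as the head and 7 as the second gene. The peak of rpb-11, a polymerase II subunit, ranked 181, 182 and 169, the closest of these sets of ranks. Splicing genes matched by the name pattern were in 6 (2.21%, against 1.68%). The pattern misses some such genes, among them yju-2 and repo-1, so both counts are too low. The peak of snr-4, an Sm protein of the splicing particles, ranked 83, 69 and 217. Genes of RNA end processing and the exosome were in 7 (2.57%, against 0.99%). The exosome gene exos-8 appears both as a head, at ranks 352, 309 and 313, and as a later gene in the cluster of T14B4.3, whose own peak ranked 364, 520 and 386, so these clusters share genes.

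At the nuclear envelope, genes of the nuclear pore and transport were in 10 clusters (3.68%, against 0.66%), and 9 were heads. The peak of imb-3, an importin, ranked 121, 52 and 133, and that of ima-2, an importin alpha, ranked 263, 248 and 253. In protein turnover and traffic, membrane traffic and vacuolar ATPase genes were in 19 clusters (6.99%, against 3.03%), chaperone genes in 11 (4.04%, against 1.80%), and ubiquitin conjugation genes in 8 (2.94%, against 1.47%), with ufd-3 at ranks 100, 114 and 156. Proteasome genes were in 2 (0.735%, against 0.63%), both second genes: pbs-3 behind ulp-2 and pas-1 behind rpoa-12. The peaks of these 2 heads ranked 24133 and 26504 in replicate 1 and 1308 and 1155 in replicate 2. Genes matched by the name pattern of the respiratory chain list were in 7 (2.57%, against 1.62%). The pattern misses some such genes, among them ndus-8 and F29B9.11, so both counts are too low.

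On the chromosome itself, DNA repair genes were in 7 clusters (2.57%, against 0.87%), among them rad-51, which pairs DNA strands in recombination, at ranks 455, 1383 and 494, and ercc-1 behind rae-1. Genes of histones and chromatin enzymes were in 9 (3.31%, against 1.80%), among them hat-1, a histone acetyltransferase, at ranks 115, 112 and 245, and mes-2, the histone methyltransferase of the worm's Polycomb complex, at ranks 338, 390 and 442. Cell cycle and replication genes matched by the name pattern were in 4 (1.47%, against 1.17%). The pattern misses some such genes, among them emb-1, emb-30 and F12F6.7, so both counts are too low. The peak of cdt-1, a licensing factor of replication origins, ranked 520, 836 and 807. DREAM and synMuv genes were in 4 (1.47%, against 0.45%): lin-38, lin-36 at ranks 280, 440 and 467, mep-1 at ranks 432, 397 and 1067, and lin-37, a DREAM subunit, as the second gene behind ZK418.5. The lists of chemoreceptors and cuticle collagens were below the share of all clusters. Chemoreceptor genes were in 3 (1.10%, against 9.30%), none as the head, and cuticle collagen genes in 1 (0.368%, against 1.2%), dpy-17 behind F54D8.6. No test over lists was made, and a head's neighbours add to each list without a peak of their own.

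A few clusters carried a strong peak at head and second gene alike. The emerin gene emr-1 starts 480 bp behind egl-30, the G alpha q gene, whose peak ranked 50, 80 and 314. The hnRNP K gene hrpk-1 starts 435 bp behind ima-2. The mRNA export gene nxt-1 starts 149 bp behind trap-1, a subunit of the translocon-associated complex, whose peak ranked 381, 279 and 207. Y75B12B.11 starts 370 bp behind cyn-3, and Y34D9A.8 starts 68 bp behind vps-4, an ATPase of the ESCRT pathway, whose peak ranked 603, 211 and 269. Of these 5 gaps, 3 were above 300 bp.

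Base composition peaked at the summit. Over the 272 members, 51.3% of bases in the 20 bp around the series-wide summit were G or C, falling to 29.7% in the bin at 120 bp upstream and 27.8% in the bin at 120 bp downstream. CG dinucleotides fell from 9.14 per 100 positions at the summit to 2.67 and 2.81 at those bins. In windows reaching 100 bp to either side of the summit, the G and C content was 40.5%, 40.1% and 39.6% on the summits of replicates 1, 2 and 3, and the ratio of observed to expected CG dinucleotides was 1.49, 1.48 and 1.48. Lone-gene peaks followed nearly the same curve, with 51.5% at the summit. In windows on series-wide summits the CG ratio was 1.47 ± 0.362 (SD over 272 windows) for tandem heads, 1.48 ± 0.416 for lone genes, 1.55 ± 0.367 for divergent promoters and 1.16 ± 0.391 for peaks away from promoters. No test between these classes was made.

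**Figure D5:**
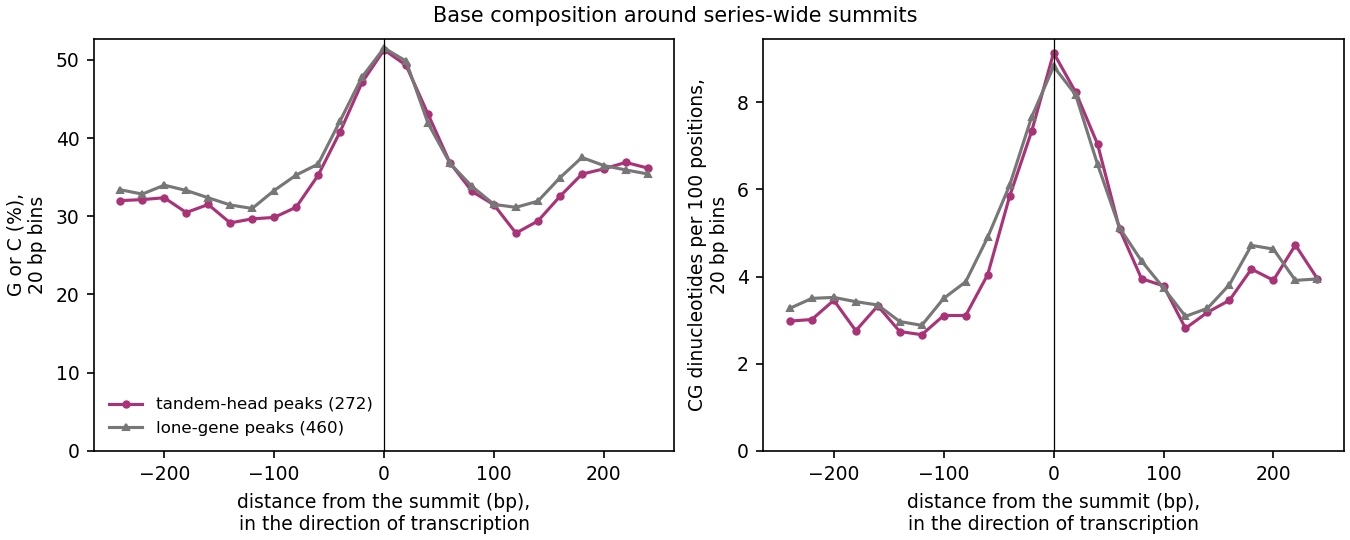
G and C content (%, left) and CG dinucleotides per 100 positions (right) in 20 bp bins by distance from the series-wide summit in bp, in the direction of transcription, for the 272 tandem-head peaks (circles) and the 460 lone-gene peaks (triangles). Both curves peak at the summit, at 51.3% and 51.5% G and C, and reach their low near 120 bp on either side.

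Short motifs were searched on both strands in the same windows. The E2F-like forms, which are TTCCCGC, its variant TTCGCGC, the form TTGCCGC and its variant TTGGCGC, were in 64 tandem-head windows (23.5%), in 24.1% of lone-gene and 24.4% of divergent windows. On the summits of replicates 1, 2 and 3 the share was 26.1%, 24.5% and 22.2%. GAGCGC, which can overlap 2 of these forms in its last 4 letters, was in 24.6%, and in 29.3% of lone-gene windows. GAGAGA was in 28.7%, against 30.7% of lone-gene windows and 49.8% of windows away from promoters. The CHR-like forms, TTCGAA and its variant TTTGAA, were in 56.2%. The GATA-like forms, AGATAA with its variant TGATAA and the form AGATAG with its variant TGATAG, were in 23.9%, and the E-box CACGTG in 5.88%. To set the members beside other genes, most of which have no strong peak, windows were also centred 186 bp upstream of the gene start. This distance is the members' median summit position before the nearest transcript start. Heads with a strong peak at a divergent promoter are among the other cluster heads. There the E2F-like forms were in 17.1% of the 269 heads, 6.79% of the other cluster heads and 7.15% of all autosomal genes. GAGCGC was in 11.5%, 4.31% and 3.9%, and GAGAGA in 21.9%, 13.2% and 14.2% of the same groups. The CHR-like forms were in 60.6%, 57.6% and 57.5%, the GATA-like forms in 36.4%, 38.9% and 40%, and the E-box in 5.20%, 3.04% and 3.53%. A match is a string of letters and not a shown binding site.

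The annotated start of the second gene often followed directly on AG. It did so for 164 of the 269 second genes of members (60.97%), against 27.7% of all autosomal genes and 34.9% of the second genes of other cluster heads. Behind a gap of 80 to 120 bp the share was 74.6% of the members' second genes and 61.5% of the others, and behind a gap above 120 bp it was 54.0% and 26.6%. The heads themselves had an AG before their start in 51.7% of cases. The longer acceptor TTTCAG stood there in 24.5% of the members' second genes, 26.02% of their heads, 13.4% of the second genes of other heads and 12.3% of all genes. The signal AATAAA lay in the last 40 bases of 40.1% of the members' heads and 45.6% of the other heads. Gaps of 40 bp or more were 39.7% T in the members and 36.8% T in the others by median. These values rest on where the annotation places each start and not on the ChIP-seq files.

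Tandem-head peaks numbered 69 on chromosome I, 49 on II, 65 on III, 48 on IV and 41 on V. They stood at 68, 49, 64, 47 and 41 different head genes, which came to 11.1, 7.31, 10.7, 8.22 and 4.66 for each 100 cluster heads on the chromosome. Chromosome V was also the lowest in strong peaks of any kind, with 221, while III had 346 and I had 344.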

How the data were processed

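The deposited files are peak lists on ce11 and ce10, 1 per replicate and 1 made from the alignments of all 3 replicates against a control file, per the labels and the text records deposited with them. Each list holds 30000 peaks, background included. Which aligner and which peak caller were run is not given in the sources used here. Peak strength is the authors' signal value on each list's own scale and served for ranks inside each list alone. The q value was treated as the authors' score, and summits were the deposited offsets, which were the midpoint in at least 99.6% of peaks. Only the ce11 lists were used. No column of another series was found (0).

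A replicate peak matched a series-wide peak by an overlap of 1 bp or more. Genes are protein-coding genes of Ensembl release 115, products and sequence are NCBI RefSeq's, and the gap runs from a gene's last base to the next gene's first. Depth is unknown, so intervals (exact binomial, 95%) cover counting error only. The replicates are labelled biological, and SDs are over the 3 replicates' own lists unless stated. The rule was tested on simulated data, a made-up annotation with peaks of known class, head and gap, and each made-up peak received its known answer. Python 3.11.15, numpy 2.4.6, pandas 2.3.3, scipy 1.17.1 and matplotlib 3.10.9 were used. No test across regions was made, since the ranks chose the members and there is no second group.

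The members, the lists and the motifs were chosen with earlier results of these data known. Name patterns of the 19 lists were corrected after the matched names were seen, and the gap classes, the places in a run and the windows at a fixed distance were added after seeing the data. Named genes are the 10 members with the best mean rank (defined for 221 members listed in all 3 replicates), the 5 longest clusters, up to 3 per list, 3 on either side of the rank limit, and up to 5 with a strong peak at the second gene; lin-37, ercc-1 and some later genes were named beside them after their values were seen. Alternatives were other rank limits, replicates left out, summit distance, promoter and gap sizes, gene starts and windows.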

Additional observations from a re-analysis of the deposited data

How the results depend on the processing

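For 16 results, 217 values were recomputed with 1 choice changed at a time. Of these, 139 stayed within the spread between replicates (the count of members within 1.5 times, and 2 shares within their 95% interval), and 78 moved beyond it. The summit position, the only result that could change sign, did not. The spread of sequence values was taken over the replicates' own lists; over the replicates' own summits at the members, a choice replaced after its outcome was seen, 106 moved. The heads that follow no gene and the shares at a gap of 80 to 120 bp were added after seeing the data. No paired analysis was possible because there is 1 group of samples; places in a run were read within each replicate instead.

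Leaving out each replicate in turn, and asking for a strong peak in both of the others, gave 155 to 249 tandem-head peaks: 249 without replicate 1, 155 without replicate 2 and 156 without replicate 3. The share strong in all 3 was then 57.8% to 92.9%, the share of second genes with a strong peak 3.25% to 7.23%, the median summit position -190 to -186 bp, the median gap 113 to 115 bp and the median cluster 2 genes. The G and C content was 39.6% to 41.5% and the CG ratio 1.47 to 1.49. The motif shares were 24.5% to 26.9% for E2F-like, 28.1% to 32.1% for GAGAGA, 26.5% to 26.9% for GAGCGC, 56.4% to 58.1% for CHR-like, 24.5% to 26.9% for GATA-like and 5.62% to 7.10% for the E-box. At a gap of 80 to 120 bp, first genes were at 14.2% to 20.2% and second genes at 0.705% to 0.882%.

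With a rank limit of 1000 there were 163 members, 70.6% strong in all 3 replicates, with a median gap of 114 bp, E2F-like at 25.8%, GAGCGC at 28.8%, CHR-like at 59.5%, and first and second genes at 14.4% and 0.705%. With a limit of 3000 the median gap was 113 bp, GAGCGC at 23.4% and second genes at 1.94%. Strength in all 3 replicates left 144 members, with 3.47% of second genes at a peak, a summit position of -191.5 bp, a gap of 115 bp, 41.3% G and C, and motif shares of 27.8% (E2F-like), 28.5% (GAGCGC), 57.6% (CHR-like), 27.1% (GATA-like) and 6.94% (E-box); first and second genes were at 13.9% and 0.529%. Narrowing the promoter to 250 bp before and 100 bp behind the start gave a position of -149 bp, a gap of 111 bp, E2F-like at 26.5%, GAGAGA at 25.7%, CHR-like at 62.2% and second genes at 1.06%. Widening it to 1000 bp before the start gave -198 bp and 1.76%. Gaps of up to 200 bp gave 3.54% of second genes at a peak, a median gap of 103 bp and CHR-like at 54.5%. Gaps of up to 1000 bp gave a median of 124 bp, GAGCGC at 27.8% and the E-box at 7.34%. Outermost gene starts gave a gap of 113.5 bp and second genes at 1.06%. Windows of 50 bp to either side gave 46.3% G and C, against 39.8% in the main windows. Their motif shares were 18.0% (E2F-like), 19.1% (GAGAGA), 22.1% (GAGCGC), 33.1% (CHR-like), 9.93% (GATA-like) and 4.41% (E-box). Shorter windows differ both in the room for a string and in base composition, and the part of each was not tested. Heads that follow no gene gave a position of -207 bp, a gap of 114 bp, a CG ratio of 1.44, and E2F-like at 21.3%, GAGCGC at 27.9%, CHR-like at 51.9% and the E-box at 7.10%. The cause was not tested for any setting. Without chemoreceptor genes, 13.5% of first and 6.52% of second genes had a strong peak.

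Matching by summits within 100 bp and windows on each replicate's own summits moved no value beyond the spread. The median gap stayed between 103 and 124 bp in every setting, and first genes before a gap of 80 to 120 bp stayed above the second genes behind it. Peak strengths cannot be compared between lists, a peak does not show which gene of a cluster it serves, and clusters of 1 list can share genes.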
